A study of Mus musculus with 12 samples.

Results

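The NRF2 antioxidant response was described through 10 of the 54532 genes measured in mouse liver. The members were every gene in the expression table with the symbol *Nfe2l2*, *Keap1*, *Nqo1*, *Gclc*, *Gclm*, *Hmox1*, *Srxn1*, *Txnrd1*, *Slc7a11* or *G6pdx*. All livers came from male C57BL/6J mice that began their diets at 5 weeks of age and stayed on them for 26 weeks. ND-fed mice received a normal diet, and control mice received a high-fat diet with no supplement. HYA-treated mice received the high-fat diet with 1% HYA, and LA-treated mice received the high-fat diet with 1% LA. LA is linoleic acid, and HYA is a hydroxy fatty acid formed from it when bacteria of the gut add water across a double bond. Each of the 4 groups held 3 mice with 1 liver library each. The supplement groups both ate the high-fat diet, so they were read against control mice, and the ND-fed mice gave the level without that diet.

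NRF2, encoded by *Nfe2l2*, is a transcription factor that pairs with small MAF proteins and binds antioxidant response elements in DNA. KEAP1 holds NRF2 in the cytoplasm and directs it to degradation until oxidants or electrophiles modify KEAP1 cysteines, so that much of the control of NRF2 lies in the protein and is not read by RNA levels. In liver the pathway is known for the enzymes that make glutathione, reduce quinones, repair oxidized thiols and supply NADPH.

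Levels are given in FPKM, fragments scaled to the length of the gene and to a divisor for each library, which can be compared between genes. The divisor was not the number of fragments on genes, being 0.917 to 0.953 of it in ND-fed mice, 1.03 to 1.10 in control mice, 0.980 to 1.01 in HYA-treated mice and 1.05 to 1.06 in LA-treated mice, and the sources used here do not say how it was set. The livers held between 17169064 and 25220880 fragments on genes, with a median of 19610557, as worked back from the FPKM values and gene lengths. The label of the tissue was checked against 9 measured hepatocyte markers, all of which averaged above 1 FPKM. Albumin (*Alb*), the most abundant of them, averaged 23900 FPKM, and the 9 markers summed to between 31800 and 49800 FPKM in every mouse. By mean level over the 12 mice the members ran from *Gclc* at 118 FPKM through *Gclm* (35.1), *Srxn1* (34.0), *Nfe2l2* (31.2), *Txnrd1* (26.9), *Hmox1* (20.2), *Keap1* (14.8), *Nqo1* (7.5) and *G6pdx* (2.85) down to *Slc7a11* at 0.0287 FPKM. From *Gclm* to *Keap1* the neighbours in that order overlapped across the mice, and the order differed by diet. In ND-fed mice *Gclm* (42.7 FPKM) came before *Txnrd1* (25.1), *Nfe2l2* (21.0) and *Srxn1* (16.9), and in control mice *Srxn1* (44.4) came before *Nfe2l2* (35.4), *Gclm* (31.3) and *Txnrd1* (27.7).

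Control mice had more RNA from 5 of the 9 members that passed the filter on low genes than ND-fed mice had, and less from 1. The 5 that rose were *Nfe2l2*, *Nqo1*, *Srxn1*, *Hmox1* and *G6pdx*, and the 1 that fell was *Gclm*. Over all 11083 tested genes, 16.2% rose and 19.1% fell in the same comparison. Rescaled to TPM, which gives every liver the same total, 7 of 9 members were higher (*Keap1* and *Txnrd1* in addition) and *Gclm* lower, against 34.2% of all tested genes higher and 6.6% lower, so the share of all genes beside the members' count depends on the scaling. A gene was tested when its mean over the mice was at least 1 FPKM, and the 9 members were above that level in every mouse, so that no member entered through 1 group alone. Calls came from limma on log2(FPKM + 1) over all 12 mice, with Benjamini-Hochberg adjusted p under 0.05 over all tested genes, called limma adjusted p below. Differences are log2 values on that scale, which understates the change of low genes. Past an additional threshold of 1 on the log2 scale were *Nqo1* and *Srxn1*, 2 of 9 members, against 3.88% of all tested genes. *Nqo1* stood close to that threshold, with a difference of 1.04 that ran from 0.973 to 1.355 over 20 alternative fits. The ranges of ND-fed and control mice did not overlap for 6 of 9 members, against 45.6% of all tested genes. The median difference was 0.26 for the 9 members and −0.04 for all tested genes.

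HYA-treated mice had less RNA from 1 of the 9 members, *Srxn1*, than control mice, and no member rose. The call of *Srxn1* was lost in 11 of 20 alternatives, and the genes called over the whole table, 310 in number, ranged from 0 (without HYA-treated mouse 2, or with only 2 groups fitted) to 653 (without control mouse 2). Of all tested genes, 1.23% fell and 1.57% rose in that comparison, and 0.307% were called past the log2 threshold of 1, a group that held no member. The ranges of HYA-treated and control mice did not overlap for 6 of 9 members, against 21.6% of all tested genes. These were *Nfe2l2*, *Nqo1*, *Srxn1*, *Hmox1* and *Txnrd1*, each lower with HYA, and *Gclm*, higher with HYA in FPKM but with a difference of −0.02 in TPM (limma adjusted p = 0.869). For *Txnrd1* the gap was lost in rounding, with both groups reaching 26.9 FPKM, and the difference was −0.06 (limma adjusted p = 0.645). In TPM 0.875% of all tested genes rose and 3.61% fell. At an unadjusted p under 0.05, 3 of 9 members and 18.5% of all tested genes differed. The median difference was −0.08 for the 9 members and 0.02 for all tested genes.

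LA-treated mice did not differ from control mice by the test in any member. The share called was 0% of all tested genes in each direction with limma, and 0 genes were called by voom, a limma fit to fragment counts worked back from FPKM, over genes with a mean of at least 10 fragments. At an unadjusted p under 0.05, 0 of 9 members and 2.65% of all tested genes passed. The ranges did not overlap for 1 of 9 members, *G6pdx*, against 7.55% of all tested genes. The comparisons with control mice all share the same 3 control livers.

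Against ND-fed mice, HYA-treated mice had more RNA from 3 of 9 members (*Nfe2l2*, *Nqo1* and *Srxn1*) and less from 1 (*Gclm*), where 8.72% of all tested genes rose and 7.85% fell. No member was past the log2 threshold of 1, against 1.89% of all tested genes. LA-treated mice had more RNA than ND-fed mice from 6 of 9 members (*Nfe2l2*, *Nqo1*, *Srxn1*, *Hmox1*, *Txnrd1* and *G6pdx*) and less from 1 (*Gclm*), where 14.4% of all tested genes rose and 16.6% fell. Only *Srxn1* among the 9 members was past the log2 threshold of 1 in LA-treated against ND-fed mice, against 3.49% of all tested genes. In TPM the all-gene shares were 14.6% higher and 3.72% lower for HYA-treated mice (4 members higher, 1 lower) and 32.6% higher and 5.58% lower for LA-treated mice (7 members higher, 0 lower). Both comparisons use the 3 ND-fed livers that also serve the control comparison.

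**Figure D1:**
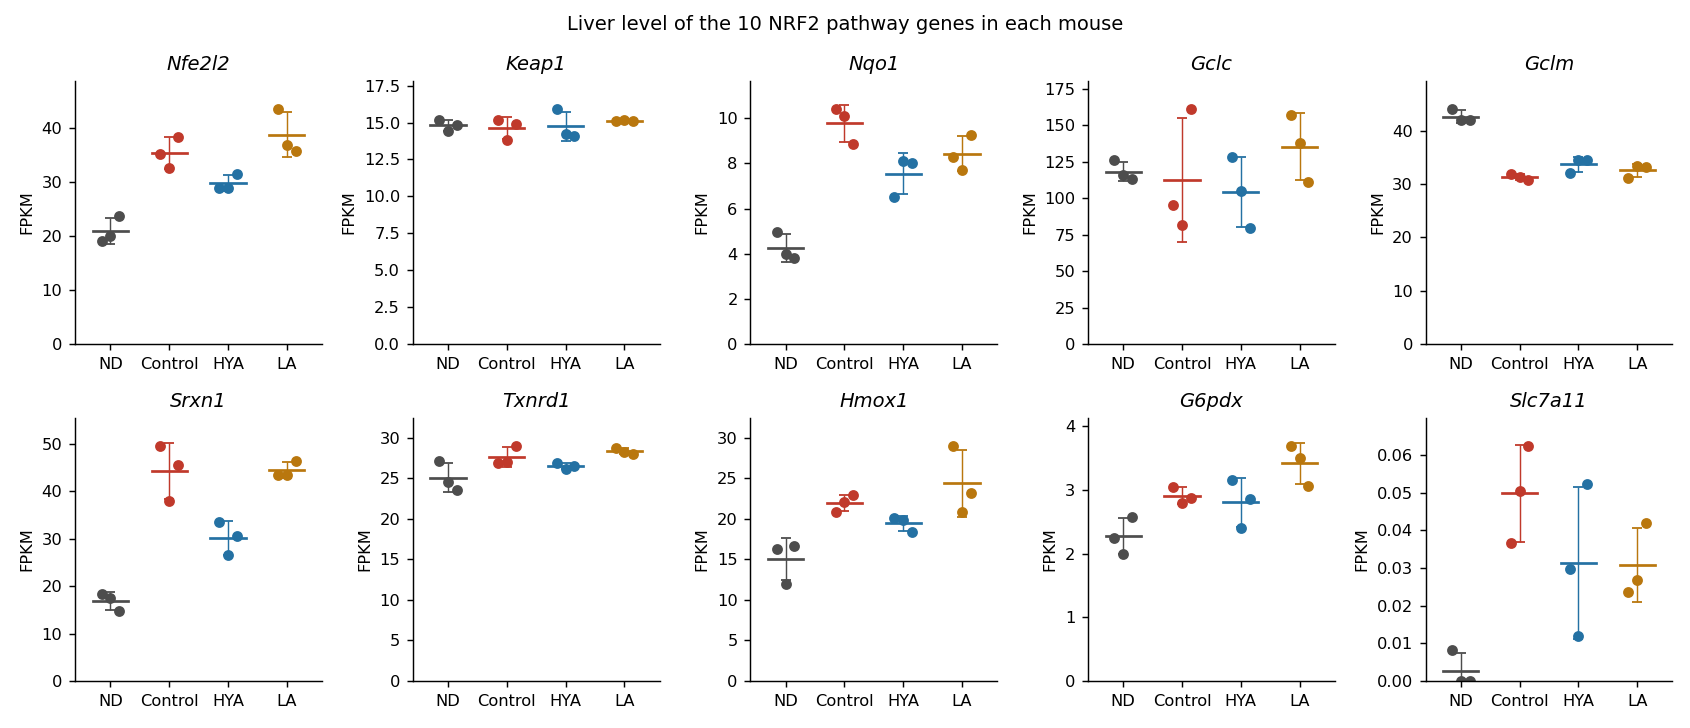
FPKM (vertical axes, from 0) of the 10 members in each of 12 livers, with 1 point per mouse, horizontal lines at group means and bars of 1 SD (n = 3 mice per group). *Srxn1* lay between 14.7 and 18.4 FPKM in ND-fed mice and between 37.9 and 49.6 in control mice, with the HYA-treated mice between them at 26.5 to 33.5.

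The regulator and its inhibitor moved differently with diet. *Nfe2l2* (ENSMUSG00000015839, chr2:75675513-75704641, minus strand, GRCm38) was at 19.1, 20.1 and 23.7 FPKM in the ND-fed mice, 35.2, 32.6 and 38.4 in the control mice, 29.0, 28.9 and 31.5 in the HYA-treated mice and 43.5, 36.9 and 35.8 in the LA-treated mice. Every mouse on the high-fat diet was above every ND-fed mouse, the HYA-treated mice lay below all control and LA-treated mice, and the control and LA-treated ranges overlapped. *Nfe2l2* rose by 0.73 on the log2 scale (SE 0.0969, limma adjusted p = 0.000247) from ND-fed to control mice, and the means were 21.0 ± 2.43 and 35.4 ± 2.91 FPKM (SD, n = 3 mice each). The difference between HYA-treated and control mice, −0.24 (95% CI −0.45 to −0.03, limma adjusted p = 0.214), did not pass. In whole liver, a change in the number of cells of a type and a change in RNA per cell cannot be told apart.

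*Keap1* (ENSMUSG00000003308, chr9:21229730-21239361, minus strand), the adaptor that presents NRF2 for degradation, was at 15.2, 14.4 and 14.8 FPKM in ND-fed mice, 15.2, 13.8 and 14.9 in control mice, 15.9, 14.2 and 14.1 in HYA-treated mice and 15.1, 15.2 and 15.1 in LA-treated mice. All 4 groups overlapped, and the highest mouse was 1.15 times the lowest. The difference between control and ND-fed mice was −0.02 (95% CI −0.14 to 0.11, limma adjusted p = 0.856). In TPM this difference became 0.21 with limma adjusted p = 0.0441, a setting that also moved the median of all tested genes from −0.04 to 0.17. Summed FPKM was lower in the livers on the high-fat diet, at 342146 in 1 control mouse and 429286 in 1 ND-fed mouse at the extremes.

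Within each mouse the ratio of *Nfe2l2* to *Keap1* FPKM was 1.26, 1.40 and 1.61 in the ND-fed mice, 2.32, 2.37 and 2.58 in the control mice, 1.83, 2.04 and 2.24 in the HYA-treated mice and 2.88, 2.43 and 2.37 in the LA-treated mice. The ratio does not depend on how a library is scaled. The HYA-treated mice lay above all ND-fed mice and below all control and LA-treated mice, which overlapped. These ratios are a description with no test.

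**Figure D2:**
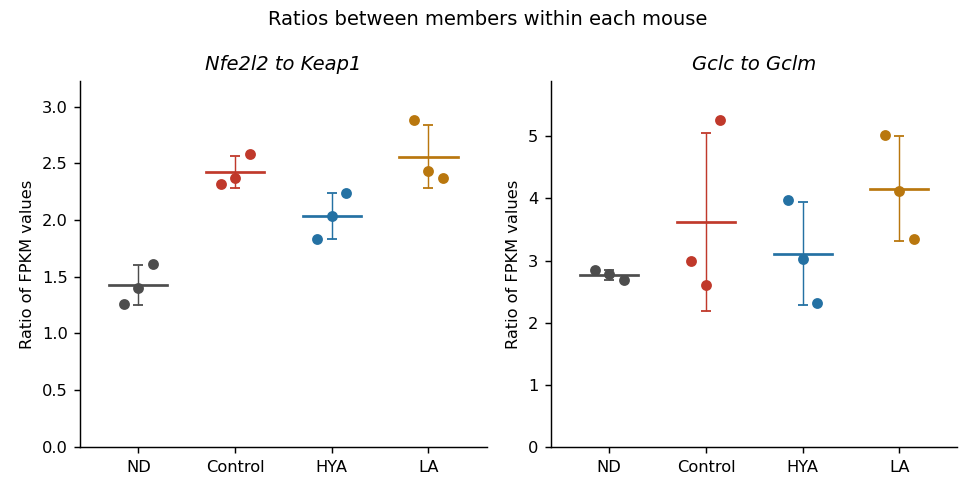
Ratio of FPKM values (vertical axes, from 0) of *Nfe2l2* to *Keap1* and of *Gclc* to *Gclm* within each liver, with 1 point per mouse, lines at group means and bars of 1 SD (n = 3 mice per group). The *Nfe2l2* to *Keap1* ratio averaged 1.42 (ND), 2.42 (control), 2.04 (HYA) and 2.56 (LA), and the *Gclc* to *Gclm* ratio ranged from 2.61 to 5.26 among the control mice alone.

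*Nqo1* (ENSMUSG00000003849, chr8:107388225-107403206, minus strand) encodes the quinone reductase that is the customary readout of NRF2 activity. Its promoter is shown because it was among the 2 members past the log2 threshold, with the promoters of *Srxn1* and *Gclm* in the paragraphs on those genes. A core of the antioxidant response element, TGACNNNGC or GCNNNGTCA on the other strand, was searched in RefSeq promoter windows of 300 bases (250 before to 50 after each start, GRCm38.p6). The windows matched 8 of the 10 members, leaving *Gclc* and *Hmox1*. The core was in a window of 5 of these 8 members (*Nfe2l2*, *Gclm*, *Srxn1*, *Txnrd1* and *G6pdx*), or 5 of 10 windows, and in 12.4% of the 32851 windows of all genes. A match is a description of letters, and no match says only that the letters are not in this window. The *Nqo1* window (chr8:107403156-107403455, minus strand), which held no match, reads:

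*Nqo1* promoter: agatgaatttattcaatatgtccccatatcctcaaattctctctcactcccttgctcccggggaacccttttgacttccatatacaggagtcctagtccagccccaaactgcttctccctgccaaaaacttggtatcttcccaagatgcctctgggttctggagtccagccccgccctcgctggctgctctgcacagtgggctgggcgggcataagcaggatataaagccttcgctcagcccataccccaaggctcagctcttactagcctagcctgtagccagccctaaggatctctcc

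*Nqo1* was at 4.98, 4.01 and 3.8 FPKM in ND-fed mice, 10.4, 10.1 and 8.86 in control mice, 6.51, 8.13 and 8.0 in HYA-treated mice and 8.28, 7.73 and 9.27 in LA-treated mice. The ND-fed mice lay below all others, the HYA-treated mice lay below all control mice, and the LA-treated mice overlapped both of these groups. Between 99 and 346 fragments stood behind each of these values. *Nqo1* rose by 1.04 on the log2 scale (SE 0.107, limma adjusted p = 5.23e-05) from ND-fed to control mice, a ratio of means of 2.29. The HYA-treated mice differed from control mice by −0.34 (95% CI −0.57 to −0.10, limma adjusted p = 0.119), which did not pass. Against ND-fed mice the level was still higher by 0.70 in HYA-treated mice (limma adjusted p = 0.00146) and by 0.84 in LA-treated mice (limma adjusted p = 0.00022).

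The 5 tested genes whose pattern was most like that of *Nqo1* over the 12 mice were *Tmem184b*, *Flot1*, *Acot2*, *Dgkd* and *Zfp608*, with Pearson r on log2(FPKM + 1) from 0.976 to 0.983. Over the 9 mice on the high-fat diet alone the r values ran from 0.852 to 0.907. These are descriptions of genes picked for likeness, with no test. *Acot2*, an acyl-CoA thioesterase, averaged 2.44 FPKM in ND-fed mice, 11.4 in control mice, 7.64 in HYA-treated mice and 8.28 in LA-treated mice.

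Glutathione synthesis begins with glutamate-cysteine ligase, whose catalytic subunit is encoded by *Gclc* and whose modifier subunit is encoded by *Gclm*. The subunits differed in how they varied. *Gclm* (ENSMUSG00000028124, chr3:122245557-122270732, plus strand) was at 44.0, 41.9 and 42.0 FPKM in ND-fed mice, 31.8, 31.4 and 30.7 in control mice, 32.1, 34.5 and 34.4 in HYA-treated mice and 31.2, 33.4 and 33.2 in LA-treated mice. It was the sole member that was highest in the ND-fed mice with no overlap with any other group, and the HYA-treated mice lay above all control mice. *Gclm* fell by 0.44 on the log2 scale (SE 0.0495, limma adjusted p = 9.84e-05) from ND-fed to control mice, fell by 0.33 from ND-fed to HYA-treated mice (limma adjusted p = 0.00126) and fell by 0.38 from ND-fed to LA-treated mice (limma adjusted p = 0.000265). In TPM the LA-treated comparison no longer passed (−0.16, limma adjusted p = 0.0537), while the control comparison did (−0.21, limma adjusted p = 0.0145). The difference between HYA-treated and control mice, 0.10 (95% CI −0.01 to 0.21, limma adjusted p = 0.300), did not pass. The *Gclm* window (chr3:122245307-122245606, plus strand), shown because *Gclm* was the sole member to fall with the high-fat diet, held 1 match, in capitals, starting 134 bases before the start site:

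*Gclm* promoter: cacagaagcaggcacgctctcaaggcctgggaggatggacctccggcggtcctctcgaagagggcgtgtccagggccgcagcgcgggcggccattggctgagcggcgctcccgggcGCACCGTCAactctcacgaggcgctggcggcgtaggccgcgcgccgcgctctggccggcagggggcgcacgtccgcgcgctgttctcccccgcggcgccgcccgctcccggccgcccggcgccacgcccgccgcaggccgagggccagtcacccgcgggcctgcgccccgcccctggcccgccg

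*Gclc* (ENSMUSG00000032350, chr9:77754535-77794485, plus strand) was at 126, 116 and 113 FPKM in ND-fed mice, 95.1, 82.0 and 161 in control mice, 128, 105 and 79.8 in HYA-treated mice and 157, 138 and 111 in LA-treated mice. All groups overlapped, and the control mice alone spanned nearly the whole range. The coefficient of variation within a group was 5.59% for ND, 37.7% for control, 23.1% for HYA and 17.1% for LA. The SD of *Gclc* within groups on the log2 scale, 0.333, was larger than that of 94.5% of tested genes, whereas that of *Gclm*, 0.0452, stood at the 2.67th percentile. The difference between control and ND-fed mice was −0.13 (95% CI −0.65 to 0.40, limma adjusted p = 0.713), an interval that spans changes in both directions, and its sign turned in TPM (0.11) and without control mouse 2 (0.07). At least 6598 fragments stood behind each *Gclc* value. The ratio of *Gclc* to *Gclm* FPKM was 2.85, 2.78 and 2.68 in ND-fed mice, 2.99, 2.61 and 5.26 in control mice, 3.98, 3.03 and 2.32 in HYA-treated mice and 5.02, 4.12 and 3.34 in LA-treated mice.

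*Srxn1* (ENSMUSG00000032802, chr2:152105516-152111376, plus strand) encodes sulfiredoxin, which returns overoxidized peroxiredoxins to use. Its promoter window (chr2:152105274-152105573, plus strand) is shown because *Srxn1* was the sole member called between HYA-treated and control mice. It held 1 match, in capitals, starting 28 bases after the start site:

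*Srxn1* promoter: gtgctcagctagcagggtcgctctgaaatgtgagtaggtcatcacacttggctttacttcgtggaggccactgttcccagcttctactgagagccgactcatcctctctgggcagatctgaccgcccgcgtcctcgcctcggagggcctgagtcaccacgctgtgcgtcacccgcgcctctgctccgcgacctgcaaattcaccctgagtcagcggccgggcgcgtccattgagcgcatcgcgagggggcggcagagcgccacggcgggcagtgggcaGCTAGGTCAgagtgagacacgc

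*Srxn1* was at 18.4, 17.5 and 14.7 FPKM in ND-fed mice, 49.6, 37.9 and 45.6 in control mice, 33.5, 26.5 and 30.6 in HYA-treated mice and 43.4, 43.5 and 46.4 in LA-treated mice. The HYA-treated mice lay between the ND-fed mice and all control and LA-treated mice with no overlap on either side, and control and LA-treated mice overlapped. The level rose by 1.34 on the log2 scale (SE 0.114, limma adjusted p = 1.49e-05) from ND-fed to control mice, from 16.9 ± 1.95 to 44.4 ± 5.92 FPKM (SD, n = 3 mice each). It fell by 0.54 (SE 0.114, limma adjusted p = 0.0390) from control to HYA-treated mice, to 30.2 ± 3.49 FPKM (SD, n = 3 mice). HYA-treated mice remained above ND-fed mice by 0.80 (limma adjusted p = 0.000927). In LA-treated mice the difference from control mice was 0.01 (95% CI −0.24 to 0.26, limma adjusted p = 0.999).

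The call of *Srxn1* between HYA-treated and control mice depended on the setting. It was lost when any of 9 mice was left out (ND-fed mouse 2, control mouse 1 or 3, or any HYA-treated or LA-treated mouse), with limma adjusted p from 0.0515 to 0.161, when genes below 1 FPKM were kept (limma adjusted p = 0.0786) and when only the livers of the 2 groups were fitted (limma adjusted p = 0.151). The log2 difference stayed between −0.67 and −0.45 in the 20 alternatives.

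*Txnrd1* (ENSMUSG00000020250, chr10:82833951-82897712, plus strand), the cytosolic thioredoxin reductase, ranged from 23.6 to 27.1 FPKM in ND-fed mice, 26.9 to 29.0 in control mice, 26.1 to 26.9 in HYA-treated mice and 28.0 to 28.7 in LA-treated mice. The highest liver was 1.23 times the lowest. The difference between control and ND-fed mice, 0.14 (95% CI 0.01 to 0.26, limma adjusted p = 0.0834), did not pass, but passed in TPM (0.37, limma adjusted p = 0.00156) and without ND-fed mouse 1 (0.19, limma adjusted p = 0.0231). LA-treated mice were above ND-fed mice by 0.17 (limma adjusted p = 0.0409). That call was lost without ND-fed mouse 2 or 3 or any HYA-treated or LA-treated mouse, with limma adjusted p from 0.0536 to 0.140, and when only the livers of the 2 groups were fitted (limma adjusted p = 0.0901).

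*Hmox1* (ENSMUSG00000005413, chr8:75093621-75100589, plus strand), the inducible enzyme that opens the haem ring, was at 16.3, 12.0 and 16.7 FPKM in ND-fed mice, 20.9, 22.1 and 22.9 in control mice, 20.1, 19.9 and 18.4 in HYA-treated mice and 29.0, 20.9 and 23.2 in LA-treated mice. Every mouse on the high-fat diet was above every ND-fed mouse, and the HYA-treated mice were below all control and LA-treated mice. *Hmox1* rose by 0.53 on the log2 scale (SE 0.130, limma adjusted p = 0.00909) from ND-fed to control mice. The difference between HYA-treated and control mice was −0.17 (95% CI −0.45 to 0.12, limma adjusted p = 0.552). Between HYA-treated and ND-fed mice it was 0.37 (limma adjusted p = 0.0795), and it passed in TPM (0.49, limma adjusted p = 0.0298) and without LA-treated mouse 1 (0.37, limma adjusted p = 0.0482).

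*G6pdx* (ENSMUSG00000031400, chrX:74409483-74429194, minus strand) encodes glucose-6-phosphate dehydrogenase, which makes NADPH at the entry of the pentose phosphate pathway. It was at 2.25, 2.0 and 2.57 FPKM in ND-fed mice, 3.05, 2.80 and 2.88 in control mice, 3.16, 2.40 and 2.85 in HYA-treated mice and 3.69, 3.50 and 3.06 in LA-treated mice. The ND-fed mice were below all control and LA-treated mice and overlapped the HYA-treated mice. *G6pdx* rose by 0.26 (SE 0.0912, limma adjusted p = 0.0473) from ND-fed to control mice, a call lost without ND-fed mouse 1 or 2, any control mouse, HYA-treated mouse 3 or LA-treated mouse 1 or 2 (limma adjusted p from 0.0534 to 0.160), and in 4 other settings up to limma adjusted p = 0.0926. From ND-fed to LA-treated mice it rose by 0.43 (limma adjusted p = 0.00475). *Ikbkg* overlaps *G6pdx* on the opposite strand and averaged 12.6 FPKM, so that, with the strand setting of the counting not given in the sources used here, fragments of the overlapping genes cannot be told apart. An antisense gene overlaps *Keap1* (*Gm16754*, 0.264 FPKM) and a processed pseudogene overlaps *Gclm* (*Gm6061*, 1.78 FPKM), as does *Gm17494* (0.0047 FPKM). An snRNA gene overlaps *Nfe2l2* (*Gm24996*, 1.46 FPKM). *Gm38560* (0.625 FPKM), *Eid3* (0.249 FPKM) and *Gm47073* (0.0326 FPKM) overlap *Txnrd1*, and the genes that overlap *Slc7a11* averaged 0 FPKM.

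*Slc7a11* (ENSMUSG00000027737, chr3:49892526-50443614, minus strand) encodes the cystine importer that feeds glutathione synthesis, and it was below 1 FPKM, the level for the test used above, in every mouse. It had 2, 0 and 0 fragments in ND-fed mice, 11, 15 and 18 in control mice, 8, 3 and 18 in HYA-treated mice and 7, 8 and 13 in LA-treated mice. Every mouse on the high-fat diet had more fragments than every ND-fed mouse, and the 3 high-fat groups overlapped. In FPKM the highest mouse was at 0.0624, and 3 fragments, the limit that a count of 0 allows, stood for 0.0136 and 0.0120 FPKM in the ND-fed mice with none. The limit covers counting error only. When low genes were kept, over 26045 genes, *Slc7a11* differed by 0.07 between control and ND-fed mice (SE 0.0171, limma adjusted p = 0.0261), a scale on which changes this far below 1 FPKM are strongly understated. In that fit it did not pass between HYA-treated and control mice (−0.03, limma adjusted p = 0.607) or LA-treated and control mice (−0.03, limma adjusted p = 1).

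**Figure D3:**
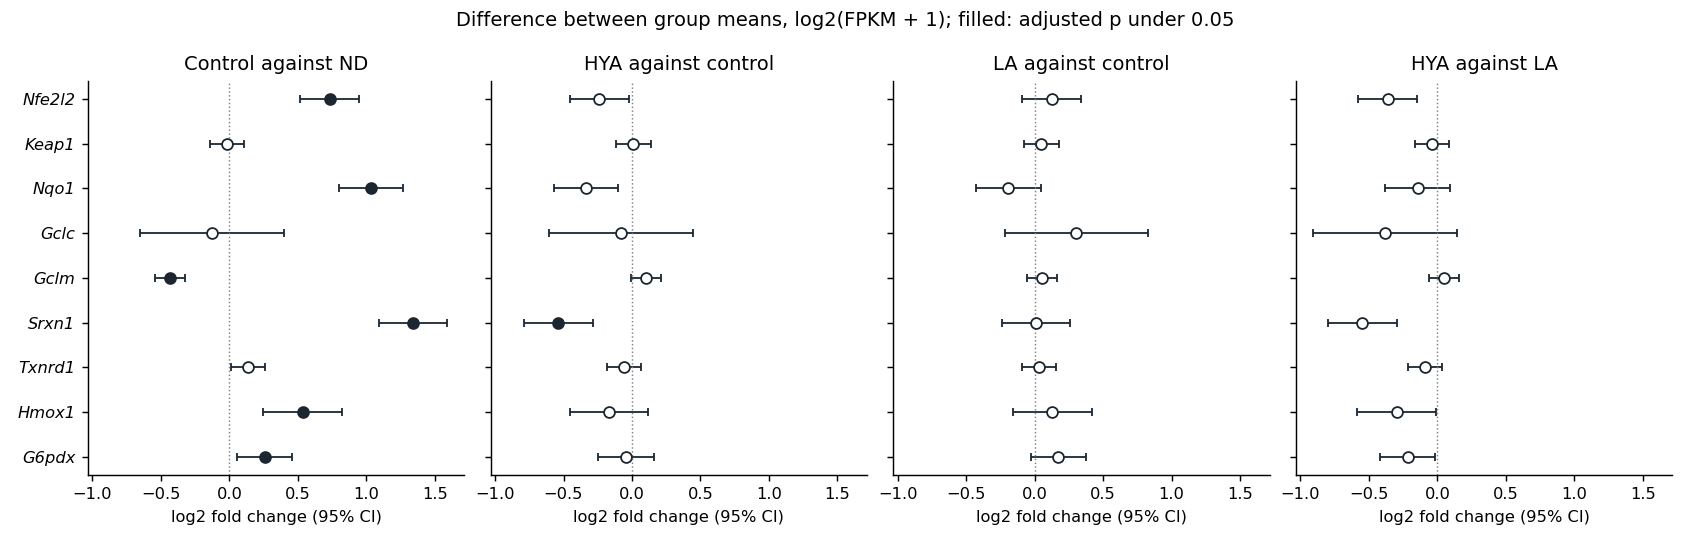
Difference between group means of log2(FPKM + 1) for the 9 tested members (horizontal axes, points, with bars of the 95% confidence interval, 3 mice per group) in 4 comparisons, with filled points where the limma adjusted p was under 0.05. Of the 6 filled points between control and ND-fed mice only *Gclm* lies left of 0, *Srxn1* is the sole filled point between HYA-treated and control mice, and no point is filled for LA against control or HYA against LA.

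HYA carries a hydroxyl group where LA has a double bond, and both were given at 1% for 26 weeks. Among the 9 tested members none passed the test between HYA-treated and LA-treated mice, where 0.235% of all tested genes were higher and 0.253% lower with HYA. In TPM 0.28% of all tested genes were higher and 1.21% lower with HYA. With voom, over 14353 genes, 0.78% were higher and 0.78% lower. The ranges did not overlap for 4 of 9 members, all lower with HYA (*Nfe2l2*, *Srxn1*, *Hmox1* and *Txnrd1*), against 25.2% of all tested genes. At an unadjusted p under 0.05, 4 of 9 members and 17.2% of all tested genes differed. *Srxn1* differed by −0.55 (95% CI −0.80 to −0.30, limma adjusted p = 0.0620) and *Nfe2l2* by −0.36 (95% CI −0.58 to −0.15, limma adjusted p = 0.0973). *Srxn1* passed with voom (limma adjusted p = 0.0334), in TPM (limma adjusted p = 0.0450) and without control mouse 1 (limma adjusted p = 0.0352) or 2 (limma adjusted p = 0.0270), and *Nfe2l2* passed in TPM (limma adjusted p = 0.0421). For *Hmox1* the difference was −0.30 (95% CI −0.58 to −0.01, limma adjusted p = 0.274) and for *G6pdx* it was −0.22 (95% CI −0.42 to −0.02, limma adjusted p = 0.256). *Nqo1* differed by −0.14 (95% CI −0.38 to 0.09, limma adjusted p = 0.535) and *Keap1* by −0.04 (95% CI −0.17 to 0.09, limma adjusted p = 0.781). For *Gclc* the interval ran from −0.91 to 0.14, for *Gclm* from −0.06 to 0.16 and for *Txnrd1* from −0.22 to 0.03. A p that misses the threshold does not show that the compounds act alike.

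Genes beyond the 10 members were read through lists by function, in FPKM unless TPM is named. The list counts are descriptions to be held against all tested genes, of which 16.2% were higher and 19.1% lower in control than ND-fed mice (34.2% and 6.6% in TPM), with a median of −0.04 (0.17 in TPM). For HYA-treated against control mice the shares were 1.57% higher and 1.23% lower (0.875% and 3.61% in TPM), with a median of 0.02 (−0.09 in TPM), so that list counts and medians depend on the scaling in both comparisons. Among regulators of NRF2, 3 of 11 tested genes rose and 0 fell from ND-fed to control mice, with a median difference of 0.02 (5 and 0, with 0.20, in TPM). *Mafk*, a small MAF partner of NRF2, rose by 1.05 (limma adjusted p = 0.000133), from 3.49 to 8.29 FPKM, and *Nfe2l1*, a related factor, rose by 0.46 (limma adjusted p = 0.000784). None of the 11 was called between HYA-treated and control mice (also none in TPM), where *Mafg* differed by 0.30 (limma adjusted p = 0.0578) and *Mafk* by −0.27 (limma adjusted p = 0.278). NADPH supply had 4 of 5 tested genes higher with the high-fat diet, with a median of 0.26 (4 higher, with 0.50, in TPM). *Pgd*, the next NADPH-making enzyme after *G6pdx*, rose by 1.05 (limma adjusted p = 9.58e-06) and malic enzyme *Me1* rose by 1.09 (limma adjusted p = 1.48e-05). *Pgd* then fell by 0.37 (limma adjusted p = 0.0448) from control to HYA-treated mice, the sole call of the 5 in FPKM (2 lower in TPM), and *Idh1* differed by 0.22 (limma adjusted p = 0.0827).

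Glutathione synthesis and recycling had 2 of 7 tested genes higher and 1 lower with the high-fat diet, with a median of 0.03 (3 and 0, with 0.26, in TPM). *Glrx*, a glutaredoxin, rose by 0.39 (limma adjusted p = 0.00555), and *Chac2*, which degrades glutathione, fell by 0.45 (limma adjusted p = 0.00630), but not past the threshold in TPM (limma adjusted p = 0.0548). None of the 7 was called with HYA in FPKM or TPM, where *Chac2* differed by 0.35 (limma adjusted p = 0.0962) and *Gss*, the glutathione synthetase, by −0.29 (limma adjusted p = 0.212). A list of thioredoxins, their reductases, *Prdx1*, *Prdx6* and *Sesn2* had 1 of 7 higher, with a median of −0.10 (3 higher, with 0.14, in TPM). The 1 in FPKM was *Sesn2*, a sestrin, higher by 0.55 (limma adjusted p = 0.0187), a call lost in 4 of 20 alternatives (without ND-fed mouse 1 or 2 or control mouse 3, and with only 2 groups fitted, limma adjusted p from 0.0647 to 0.0777). *Txn2* differed by −0.16 (limma adjusted p = 0.0757), and none of the 7 was called with HYA in FPKM or TPM, where *Txnrd3* differed by 0.38 (limma adjusted p = 0.0736) and *Prdx6* by 0.18 (limma adjusted p = 0.256).

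Glutathione S-transferases moved in both directions with the high-fat diet, 4 higher and 6 lower of 14, with a median of −0.06 (7 and 3, with 0.18, in TPM). *Gstm3* rose by 1.90 (limma adjusted p = 2.13e-06), from 49.9 to 190 FPKM, and *Gstp1* fell by 1.61 (limma adjusted p = 1.82e-05), from 1360 to 445 FPKM. From control to HYA-treated mice 2 of 14 fell (5 in TPM, where the median went from −0.161 to −0.295), *Gstm3* by 1.04 (limma adjusted p = 0.0129) and *Gsta1* by 1.27 (limma adjusted p = 0.0304). *Gstm3* also differed between the compounds, by −0.96 for HYA against LA (limma adjusted p = 0.0183), the sole named list gene called between the compounds in FPKM. That call was lost in 6 of 20 alternatives, without HYA-treated mouse 2 or 3 or any LA-treated mouse and when low genes were kept (limma adjusted p from 0.0531 to 0.102). Other antioxidant enzymes had 5 of 13 higher and 7 lower with the high-fat diet, with a median of −0.205 (6 and 4, with 0.02, in TPM), and among them were *Prdx2* and *Prdx3*, higher, and *Prdx4* and *Prdx5*, lower. *Gpx4* and *Gpx3*, glutathione peroxidases, rose by 0.96 (limma adjusted p = 1.3e-05) and 1.29 (limma adjusted p = 3.75e-05), and with HYA they fell by 0.36 (limma adjusted p = 0.0443) and fell by 0.62 (limma adjusted p = 0.0348). Catalase (*Cat*), the 1 of 13 to rise with HYA beside the 2 that fell (1 and 4 in TPM), rose by 0.34 (limma adjusted p = 0.0357), after it fell by 0.59 (limma adjusted p = 0.000123) from ND-fed to control mice.

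Quinone and carbonyl detoxification had 2 of 12 higher and 3 lower with the high-fat diet, with a median of −0.05 (4 and 2, with 0.16, in TPM). *Ces1g*, a carboxylesterase, fell by 0.74 (limma adjusted p = 4.66e-05). Carbonyl reductase *Cbr1* rose by 0.64 (limma adjusted p = 0.000689) and fell by 0.45 with HYA (limma adjusted p = 0.0448), the 1 call of the 12 in FPKM (2 lower in TPM), and *Ugdh* differed by −0.33 (limma adjusted p = 0.0683). A list of haem and iron genes had 3 of 6 higher and 2 lower, with a median of 0.17 (3 and 0, with 0.40, in TPM). The 2 lower were *Blvrb*, a biliverdin reductase, and *Fech*, which makes haem. The ferritin genes *Ftl1* and *Fth1* rose by 0.57 (limma adjusted p = 0.000106) and 0.38 (limma adjusted p = 0.000272), and the haem transporter *Slc48a1* rose by 0.25 (limma adjusted p = 0.00855) and fell by 0.28 with HYA (limma adjusted p = 0.0412), the 1 call of the 6 in FPKM (3 lower in TPM), while *Ftl1* differed by −0.22 with HYA (limma adjusted p = 0.0982). Efflux transporters (1 higher and 0 lower in TPM) had 1 of 3 higher, *Abcc5* by 0.35 (limma adjusted p = 0.00363), and 1 lower, *Abcc3*, which fell by 0.21 (limma adjusted p = 0.0240) and in TPM differed by 0.029 (limma adjusted p = 0.758). The *Abcc3* call was also lost without ND-fed mouse 1 or 2 or any control mouse (limma adjusted p from 0.0520 to 0.0656). None of these 3 was called with HYA in FPKM or TPM, where *Abcc5* differed by −0.19 (limma adjusted p = 0.185) and *Abcc2* by 0.13 (limma adjusted p = 0.563).

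Lists of neighbouring pathways were read beside these, since *Nqo1* is also known as a target of the aryl hydrocarbon receptor and *Slc7a11* of ATF4. Of 3 tested aryl hydrocarbon receptor genes 0 rose and 1 fell from ND-fed to control mice, with a median of 0.12 (1 and 1, with 0.355, in TPM). *Cyp1a2* fell by 1.64 (limma adjusted p = 0.000483), and *Tiparp* (0.22, limma adjusted p = 0.137, but 0.47 and limma adjusted p = 0.0125 in TPM) and *Ahr* (0.12, limma adjusted p = 0.496) did not pass. Of 9 tested ATF4 genes 3 rose and 1, *Atf4* itself, fell by 0.39 (limma adjusted p = 0.0111), with a median of 0.26 (4 and 0, with 0.50, in TPM). *Atf3* rose by 1.21 (limma adjusted p = 0.000242) and *Ddit4* by 0.92 (limma adjusted p = 0.00784). Neither list held a call with HYA in FPKM, where *Cyp1a2* differed by 0.65 (limma adjusted p = 0.177), *Ahr* by −0.24 (limma adjusted p = 0.345), *Atf3* by −0.61 (limma adjusted p = 0.0709) and *Ddit4* by −0.52 (limma adjusted p = 0.233). *Atf3* passed with HYA in TPM (−0.84, limma adjusted p = 0.0410) and without control mouse 2 (limma adjusted p = 0.0314) or LA-treated mouse 1 (limma adjusted p = 0.0423). No gene of any list was called between LA-treated and control mice. *Sesn2*, *Chac1* and *Slc3a2* stand in more than 1 list. The 8 list genes named above as called with HYA each lost that call in 2 to 13 of 20 alternatives.

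**Figure D4:**
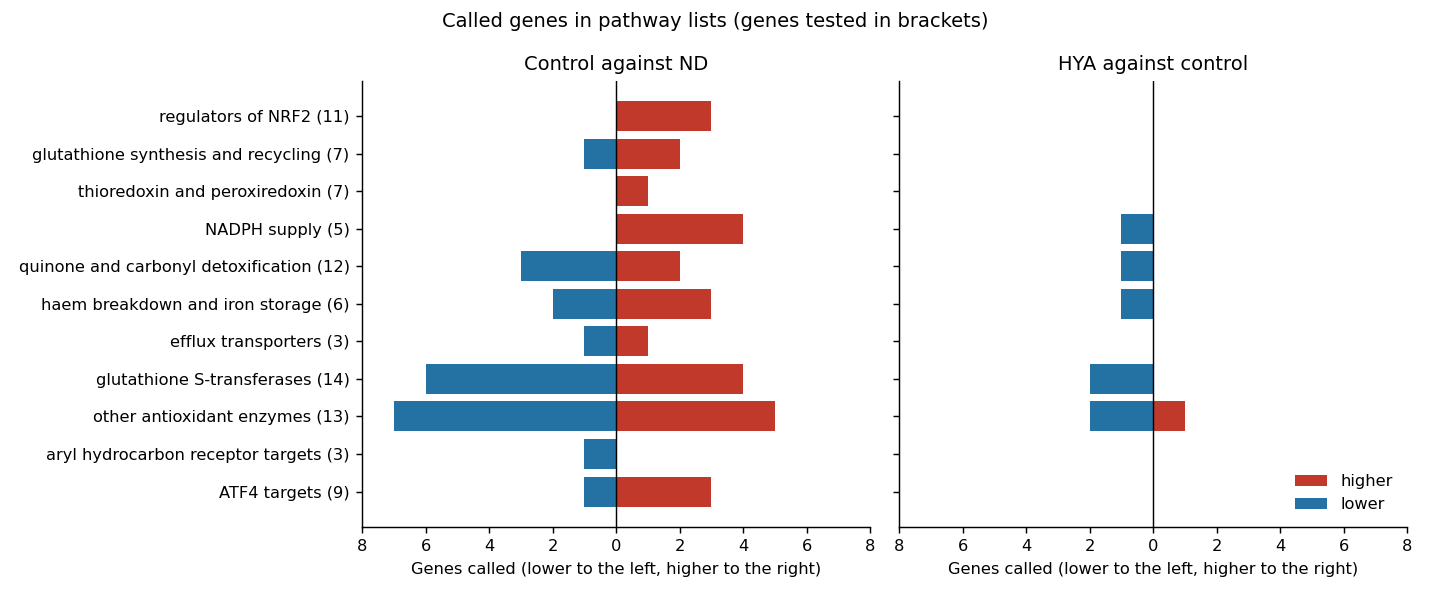
Number of genes called lower (bars to the left) and higher (bars to the right) in each of 11 pathway lists, by limma adjusted p under 0.05 in FPKM, with the genes tested in brackets, for control against ND-fed mice and HYA-treated against control mice. NADPH supply has 4 of 5 genes higher and 0 lower with the high-fat diet, while glutathione S-transferases have 4 higher and 6 lower of 14.

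Markers of cell types moved with the same comparisons, and their part in the members' results was not tested. The marker counts are in FPKM and are not given in TPM. From ND-fed to control mice 16.2% of all tested genes rose and 19.1% fell (34.2% and 6.6% in TPM). From control to HYA-treated mice 1.57% rose and 1.23% fell (0.875% and 3.61% in TPM). Of 9 hepatocyte markers 0 rose and 7 fell from ND-fed to control mice, and 2 rose from control to HYA-treated mice. Their summed level was 49800, 48600 and 49800 FPKM in ND-fed mice, 31800, 37000 and 35800 in control mice, 40800, 43800 and 42900 in HYA-treated mice and 35100, 36300 and 35100 in LA-treated mice. HYA-treated mice lay between ND-fed mice and the other mice on the high-fat diet with no overlap. Stellate cell and fibroblast markers had 8 of 11 higher and 0 lower with the high-fat diet and 4 of 11 lower when HYA was added to it. They summed to 50, 44.3 and 57.6 FPKM in ND-fed mice, 132, 100 and 122 in control mice, 94.3, 79.2 and 86.5 in HYA-treated mice and 133, 110 and 112 in LA-treated mice, with *Dcn* the most abundant at a mean of 32.4 FPKM. These sums have the order of *Srxn1* across groups, with HYA-treated mice between ND-fed and control mice and no overlap. That order is not particular to this list. The cholangiocyte sums below share it, and the hepatocyte sums have its reverse, each with no overlap.

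Macrophage markers, read beside *Hmox1* because macrophages also break down haem, had 7 of 13 higher and 2 lower with the high-fat diet and 1 of 13 lower with HYA. They summed to 466, 311 and 410 FPKM in ND-fed mice, 493, 474 and 513 in control mice, 479, 396 and 346 in HYA-treated mice and 494, 465 and 489 in LA-treated mice. ND-fed mice lay below all control mice, and HYA-treated mice overlapped both groups. *Lyz2* was the most abundant at a mean of 81.0 FPKM, and *Ccr2*, *Trem2* and *Itgam* averaged under 1 FPKM.

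Cholangiocyte markers had 2 of 3 tested genes, *Epcam* and *Spp1*, higher with the high-fat diet and lower with HYA. *Sox9* was called neither with the high-fat diet (−0.05, limma adjusted p = 0.853) nor with HYA (−0.33, limma adjusted p = 0.378). The cholangiocyte markers summed to 19.3, 27.1 and 28.2 FPKM in ND-fed mice, 172, 78.5 and 120 in control mice, 39.2, 45.3 and 53.1 in HYA-treated mice and 135, 81.8 and 106 in LA-treated mice. Most of that sum was *Spp1*, at a mean of 70.8 FPKM, while *Krt19*, *Krt7*, *Cldn7* and *Cftr* averaged under 1 FPKM. Endothelial markers, led by *Clec4g* (24.2 FPKM), had 2 of 7 higher with the high-fat diet and 0 called with HYA, and summed to 67.3, 54.5 and 67.8 FPKM in ND-fed mice, 76.7, 77.6 and 75.9 in control mice, 78.7, 76.5 and 72.6 in HYA-treated mice and 73.9, 73.9 and 77.9 in LA-treated mice. Erythroid markers, led by *Hbb-bs* (197 FPKM), had 1 of 5 lower and 0 higher with the high-fat diet and 0 called with HYA, and summed to 384, 280 and 321 FPKM in ND-fed mice, 504, 556 and 337 in control mice, 399, 572 and 291 in HYA-treated mice and 330, 416 and 585 in LA-treated mice. The erythroid groups overlapped, and in the endothelial sums the ND-fed mice alone lay apart. No marker of the 6 lists was at 0 in all mice.

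**Figure D5:**
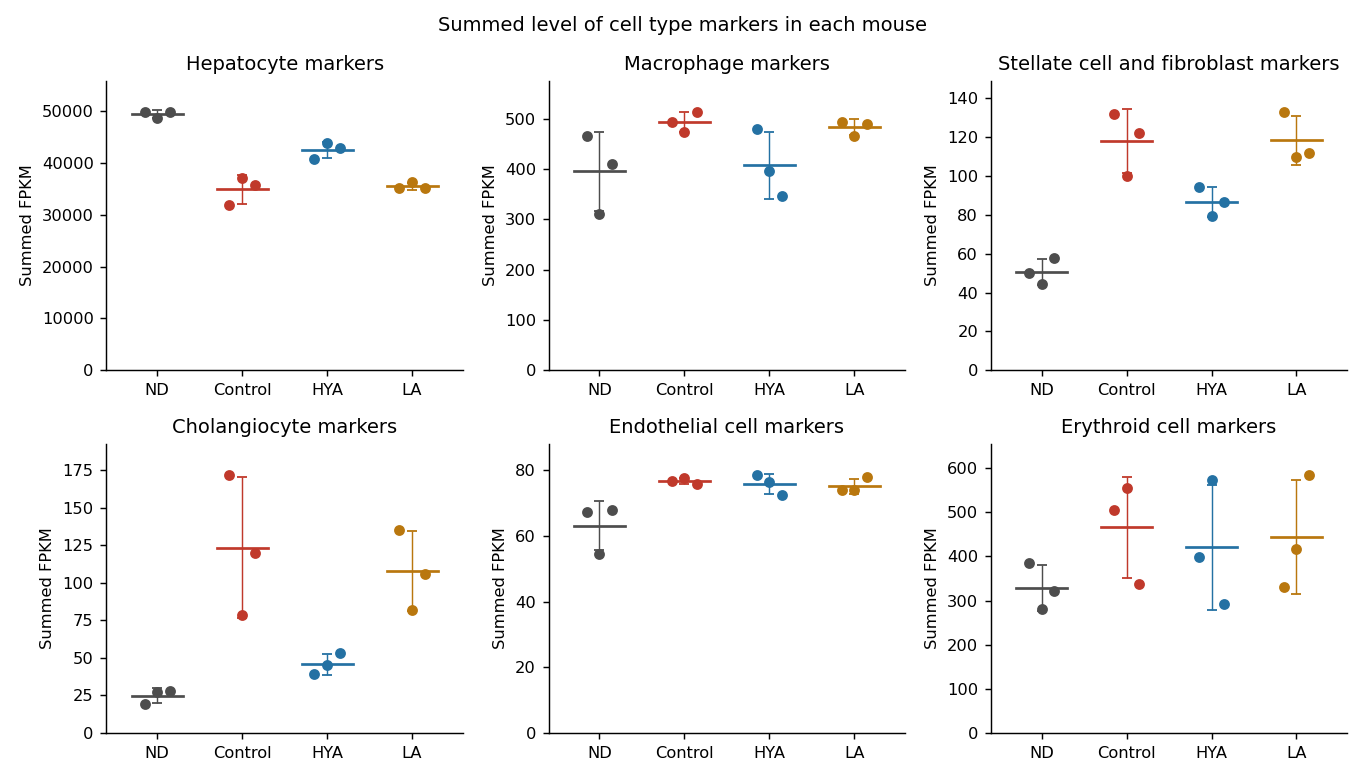
Summed FPKM of each cell type marker list (vertical axes, from 0) in each liver, with 1 point per mouse, lines at group means and bars of 1 SD (n = 3 mice per group). Stellate cell and fibroblast markers averaged 50.6 (ND), 118 (control), 86.7 (HYA) and 118 (LA) FPKM, and hepatocyte markers averaged 49400, 34900, 42500 and 35500 FPKM in the same order.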

How the data were processed

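RNA was sequenced from 12 livers in 4 groups of 3 mice, taken from the sample labels. The authors deposited FPKM per gene. The submitters' processing notes name fastp, HISAT2 (version 2.0.5), featureCounts (version 1.5.0-p3) and GRCm38. The annotation release, strand setting and library scaling are not given in the sources used here. The paper's methods name TPM, but column sums between 342146 and 429286 showed FPKM. FPKM times gene length gave whole fragments for 100% of values, within a tolerance of 0.02. Columns not used numbered 0. limma 3.58.1 in R 4.3.3 was fitted to log2(FPKM + 1) with trend over all 12 mice, two-sided, with Benjamini-Hochberg adjustment over 11083 genes that averaged 1 FPKM or more over the mice, and tested on simulated data. Each of the 6 comparisons was also run in 20 alternative fits, 12 of them without 1 mouse and 8 with a pseudocount of 0.1, other filters (none, or 10 mean fragments), TPM, median-ratio size factors, voom (with the filter of 10 mean fragments), only the 2 groups compared, or a replicate block, and with a threshold of 1 on the log2 scale added to the rule for a call. Ranges are over mice, and intervals are 95%.

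All 10 members were named. From each pathway list the 2 tested genes with the smallest p in control against ND-fed mice and the 2 in HYA-treated against control mice were named, and from each marker list the most abundant gene. The members and lists were chosen with earlier results of these data known. Genes in the table with an identifier in GENCODE M21 numbered 54409, of which 98.33% had identical coordinates, and so did all 10 members. Promoters came from RefSeq (GRCm38.p6), matched by symbol. The level of 1 cell type marker is not reported here and was left out of the marker sums.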

Additional observations from a re-analysis of the deposited data

How the results depend on the processing

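Between control and ND-fed mice, *Nfe2l2*, *Nqo1*, *Hmox1*, *Srxn1* and *Gclm* kept their direction and passed in all 20 alternative fits, and the LA against control comparison held 0 member calls in each. With the added log2 threshold of 1, the count of higher members in control against ND fell from 5 to 2 and members lower from 1 to 0. Under that rule HYA against control had 0 lower in place of 1, HYA against ND had 0 higher in place of 3 and 0 lower in place of 1, and LA against ND had 1 higher in place of 6 and 0 lower in place of 1. HYA against control also had 0 lower members when low genes were kept, where 26045 genes in place of 11083 shared the adjustment, and when only the livers of the 2 groups were fitted. HYA against LA had 2 lower members in TPM and 1 with voom, in place of 0, and LA against ND had 0 lower in TPM. For HYA against LA, 1.21% of all tested genes were lower in TPM and 0.78% with voom, in place of 0.253%. With 1 mouse left out at a time, HYA against control had 0 to 1 lower members and HYA against LA 0 to 1, control against ND had 4 to 5 higher, HYA against ND 3 to 4 higher and LA against ND 5 to 6 higher, and the counts in the other directions did not move. *Keap1* changed sign between control and ND-fed mice in TPM (0.21, limma adjusted p = 0.0441, with 0.0441 to 0.980 over its alternatives), and so did *Abcc3* (0.029, limma adjusted p = 0.758). *Keap1* also changed sign there without ND mouse 1 (0.00254) and without control mouse 2 (0.0238), and *Gclc* in TPM (0.108) and without control mouse 2 (0.0692), none of them passing. *Keap1* passed between LA-treated and ND-fed mice in TPM (0.26, limma adjusted p = 0.0209). In HYA against control the sign changed for *Gclm* in TPM (−0.0196), *G6pdx* without HYA mouse 2 (0.0350), *Gclc* in 2 alternatives and *Keap1* in 3, in HYA against LA for *Gclm* in TPM (−0.0713), in LA against control for *Srxn1* in 2, and in HYA against ND for *Keap1* in 4, none of them passing. The cause of these changes was not tested.

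Counts over all genes moved by more than 1.5 times as follows. HYA against control called 310 genes, against 105 with low genes kept, 497 in TPM, 511 with voom over 14353 genes (444 with limma over the same genes, so that the filter and the method both differ from the main fit), 0 with only 2 groups fitted, 34 with the log2 threshold, and from 0 (without HYA mouse 2) to 653 (without control mouse 2) with 1 mouse left out. HYA against LA called 54 genes, against 0 with low genes kept, 165 in TPM, 224 with voom (70 with limma over the same 14353 genes), 94 with only 2 groups fitted, 12 with the log2 threshold, and from 0 (without HYA mouse 2 or LA mouse 1 or 2) to 259 (without control mouse 2). LA against control called 0, and 1 with low genes kept. Control against ND called 3910 genes, HYA against ND 1836 and LA against ND 3445, against 430, 209 and 387 with the log2 threshold, and HYA against ND called 1193 without ND mouse 2. In TPM the share of calls that were higher went from 45.9% to 83.8% for control against ND, from 56.1% to 19.5% for HYA against control, from 48.1% to 18.8% for HYA against LA, from 52.6% to 79.8% for HYA against ND and from 46.4% to 85.4% for LA against ND.

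Between control and ND-fed mice the list medians moved in TPM with the median of all genes, for glutathione S-transferases from −0.06 to 0.18 and for other antioxidant enzymes from −0.205 to 0.0209, where 6 were higher and 4 lower of 13 in place of 5 and 7.

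The labels give the groups the same replicate numbers. Deviations of same-numbered mice correlated from −0.396 to 0.294, over 0.1 in 3 of 18 pairs, and a mouse correlated best with its own number in 13 of 36 cases, so the numbers were not taken to pair the mice. With the replicate block, HYA against LA had 1 lower member (*Srxn1*) in place of 0, and 258 genes in place of 54, and *Txnrd1* in LA against ND no longer passed (limma adjusted p = 0.0563). The block also added calls among the named list genes. In HYA against control *Atf3* (limma adjusted p = 0.0394) and *Idh1* (limma adjusted p = 0.0461) passed. In control against ND *Txn2* (limma adjusted p = 0.0435) and *Prdx6* (limma adjusted p = 0.0263) passed. In HYA against LA *Cat* (limma adjusted p = 0.0439) and *Atf3* (limma adjusted p = 0.037) passed.

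With 3 mice per group, the depth behind *Nqo1* (99 to 346 fragments) and *G6pdx* (98 to 242 fragments) adds counting error that is small for *Gclc* (6598 to 12596 fragments), and *Slc7a11*, at 18 fragments or fewer, was below the filter of the test. With low genes kept it passed between control and ND-fed mice (0.07, limma adjusted p = 0.0261) while *G6pdx* did not, so the count of 5 higher members then held other genes.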

Other observations

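The wide spread of *Gclc* within the high-fat groups was followed in other genes, picked after its values were seen from the tested genes whose deviations from the group means were most like or most unlike those of *Gclc*, so that the likeness is a description with no test. Among the most like were *Nt5e* (Pearson r 0.99), *Scaf1* (0.98), *Sesn3* (0.979) and *Osgin1* (0.976). Among the most unlike were *Tef* (−0.987), *Klf13* (−0.986), *Per3* (−0.983) and *Trak1* (−0.973). Only *Osgin1*, *Tef* and *Per3* are shown by mouse, and these 3 were not picked by the rank of r. *Osgin1*, an oxidative stress response gene in the quinone and carbonyl list, was at 120, 106 and 120 FPKM in ND-fed mice, 35.8, 31.1 and 87.2 in control mice, 70.1, 57.9 and 36.8 in HYA-treated mice and 80.2, 63.2 and 38.1 in LA-treated mice. *Osgin1* was among the genes of that list called lower in control than ND-fed mice (−1.30, limma adjusted p = 0.0212). As for *Gclc*, control mouse 3, HYA-treated mouse 1 and LA-treated mouse 1 were the highest of their groups. *Tef*, a transcription factor with a daily rhythm in liver, was at 18.4, 19.5 and 19.5 FPKM in ND-fed mice, 24.3, 30.5 and 7.65 in control mice, 14.7, 24.6 and 34.6 in HYA-treated mice and 9.90, 14.3 and 23.5 in LA-treated mice. *Per3*, a clock gene, was at 1.91, 2.12 and 2.51 FPKM in ND-fed mice, 5.59, 6.84 and 0.713 in control mice, 1.68, 4.91 and 7.49 in HYA-treated mice and 1.38, 2.23 and 4.87 in LA-treated mice. In each high-fat group the mouse with the most *Gclc* RNA had the least *Tef* and *Per3* RNA, and the mouse with the least *Gclc* RNA had the most of both. Such an order follows from picking genes by their r with *Gclc*. The time of day at which each liver was taken is not given in the sources used here, and its part in the spread of *Gclc* was not tested.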
